A study of Komagataella phaffii with 32 samples.

Results

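The data described here are the transcript levels of a rim101 mutant of the yeast Komagataella phaffii (also called Pichia pastoris) after 30 min at pH 8.0, set against the same mutant at the start. They come from 4 of the 32 RNA sequencing libraries of the series, chosen by the strain and time of their labels: 2 of the rim101 strain PJA-007 (genotype rim101_117) at 30 min and pH 8.0 (rim101 T30), and 2 of that strain at time 0 and pH 5.5 (rim101 T0). The wild type X-33, with 3 libraries at each of these points (WT T30 and WT T0), served for the comparison of the responses, and the rim101 libraries at 15 and 60 min (T15 and T60, 2 each) are given beside the values at 30 min. All cultures grew at 28 °C in rich YP medium with 20 g/L glycerol, were pelleted in exponential growth and were resuspended in that medium with 50 mM TAPS buffer at either pH. The labels do not state what the rim101_117 allele changes, and the mutant is 1 named strain. No library at pH 5.5 was taken after time 0, so pH, time after resuspension and growth cannot be told apart. The series asks what Rim101 and a second factor, Crz1, contribute to the response to alkaline medium.

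Rim101 is a zinc finger transcription factor. In Saccharomyces cerevisiae it is activated by proteolytic cleavage when the medium turns alkaline, through the Rim proteins at the plasma membrane and the endosomal sorting (ESCRT) machinery, and it acts largely by repressing other repressors such as Nrg1. Alkaline medium weakens the proton gradient that drives many nutrient carriers and makes iron, copper and phosphate harder to take up, so that budding yeasts induce phosphate and metal uptake genes, sodium export and cell wall repair when the pH rises. The sequenced genes are given below by these roles.

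Levels are in RPKM as the authors deposited them, that is, read counts divided by gene length and by the mapped reads of the library. Read depth, where the spacing of the values gave it, was 6.33 M reads in rim101 T30 replicate 2, and 13.4 and 13.8 M in the rim101 T0 libraries; in rim101 T30 replicate 1 it could not be read off. The libraries at T30 and T0 differed in their whole distribution. The median gene tested had 56.6 and 48.1 RPKM in rim101 T30, against 24.6 and 26.8 RPKM in rim101 T0. The same 5 abundant genes (TEF2, SPI1, TDH3, PDC1 and SSA1) took 4.74% and 5.36% of reads in rim101 T30, and 15.2% and 13.5% in rim101 T0. Across the series, 9 of the 32 libraries had such a high median (46.6 to 56.6 RPKM) and 23 a lower one (21 to 35.4 RPKM), and the 9 were spread over several strains and times. Library type here means only this split into high and lower medians, at 40 RPKM, and the labels name no such type. Both rim101 T30 libraries had the high median, as had 1 of the 3 WT T30 libraries, T15 replicate 2 of rim101 and no T0 library of any strain. In this comparison library type and group therefore cannot be told apart. A total of 837 and 1013 genes were listed at exactly 0 in rim101 T30, and 1159 and 1178 in rim101 T0. These zeros included genes that growing cells need: of 136 ribosome biogenesis genes, 1 and 2 were at 0 in rim101 T30, and 28 and 7 in rim101 T0. A value of 0 is therefore reported only as listed at 0, with no fold change.

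RIM101 itself (PAS_chr3_0625, chromosome 3, 1185885 to 1187711, minus strand) had 42.1 and 24.3 RPKM in rim101 T30, against 25.9 and 31.4 RPKM in rim101 T0. In WT it had 143, 135 and 120 RPKM at T30, and 45.7, 20.5 and 42.7 RPKM at T0. The gene was thus transcribed in the mutant at levels near those of WT T0, and its mRNA does not check the genotype. Its change in rim101 was 0.16 on the log2 scale (SE 0.29, adjusted p = 0.643 in limma with Benjamini-Hochberg adjustment), with overlapping groups. In WT it rose by 1.92 (adjusted p = 2.28e-06), and the difference between the responses was -1.76 (SE 0.37, adjusted p = 0.015), which lost its call without rim101 T30 replicate 2 (adjusted p = 0.237) and without rim101 T0 replicate 2.

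Most transcripts were higher at 30 min in the units deposited. Of 4226 genes tested, 840 (19.9%) rose and 158 (3.74%) fell by at least 2-fold in rim101 T30 against rim101 T0 at an adjusted p under 0.05 in limma, with the spread pooled over all 12 groups of the series. With 2 libraries in each group an exact permutation test could not give a p below 0.333, so every test rests on that pooled spread. Without a minimum fold, 995 rose (23.5%) and 196 fell (4.64%). The median change over all genes tested was 0.85 on the log2 scale. The counts rested heavily on how libraries were scaled and on single libraries. With median-ratio scaling, which moved the median change to 0.13, 320 rose and 301 fell, so that the share of rises among the calls was 51.5%, against 84.2% as deposited; quantile normalization gave 244 and 364. Without T30 replicate 1, T30 replicate 2, T0 replicate 1 or T0 replicate 2, the rises numbered 141, 343, 187 and 433, and the falls 76, 82, 65 and 130.

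Library type moved with these calls. Between the 2 libraries of rim101 T15, which differ in type but not in strain or time, 436 of the 840 rises (51.9%) were at least 2-fold higher in replicate 2, the library with the high median, than in replicate 1, as were 1502 of all 4226 genes (35.5%). Of the 158 falls, 49 (31%) were at least 2-fold lower in replicate 2, against 294 of all genes (6.96%). A fit with library type as a further term, chosen after seeing the data, gave 259 rises and 110 falls, of which 206 and 78 were among those counted first. Below, a gene is said to have risen or fallen where its limma adjusted p (Benjamini-Hochberg over the 4226 genes) was under 0.05 with the values as deposited, and its fate with library type as a term and with median-ratio scaling is given where it changed.

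Of 18 tested genes of phosphate uptake and storage, 11 rose and 2 fell, with a median log2 change of 1.76, against 0.85 over all genes; 23.5% of all genes rose and 4.64% fell. With library type as a term 10 rose and 1 fell, with median-ratio scaling 9 and 4, and without 1 of the 4 libraries between 9 and 10 rose. PHO84-1 (PAS_chr4_0337, chromosome 4, 689274 to 691001), 1 of 2 genes named for the high-affinity proton-coupled phosphate transporter, had 3972 and 3364 RPKM in rim101 T30, against 41.0 and 23.9 RPKM in rim101 T0. The groups lay far apart, and the log2 change was 6.82 (SE 0.77, adjusted p = 1.4e-06). The vacuolar polyphosphate synthase subunits VTC2 and VTC4 rose by 3.79 (adjusted p = 9.69e-08) and 3.03 (adjusted p = 7.3e-06). PHO5, named for a secreted acid phosphatase, had 365 and 300 RPKM in rim101 T30, and 10.6 and 14.4 RPKM in rim101 T0, a rise of 4.63 (adjusted p = 7.18e-09). PHO81, which in S. cerevisiae inhibits the Pho80-Pho85 kinase, rose by 3.35 (adjusted p = 0.000329), and PHO4-2, 1 of 2 genes named for the transcriptional activator, by 4.65 (adjusted p = 1.79e-05). PHO2, named for the partner factor of Pho4, fell to 9.98 and 3.44 RPKM in rim101 T30, against 39.2 and 20.1 RPKM in rim101 T0 (adjusted p = 0.00651).

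PHO89 and PHO84-2 did not rise in the mutant. PHO89 (PAS_chr2-1_0235, chromosome 2, 442707 to 444437), the sodium-coupled symporter that works at alkaline pH, had 21.6 and 11.3 RPKM in rim101 T30, and 26.0 and 24.5 RPKM in rim101 T0. In WT it had 3448, 4134 and 4953 RPKM at T30, and 68.5, 265 and 222 RPKM at T0. The levels thus separated the strains at both times, and the difference in response was -5.34 (SE 0.74, adjusted p = 9.71e-05 in limma), while the change within rim101 was -0.66 (adjusted p = 0.337). PHO84-1 went the other way: it had 22.3, 37.0 and 32.7 RPKM in WT T30, and 53.8, 66.7 and 106 RPKM in WT T0, so that its response differed by 8.06 (SE 1.00, adjusted p = 2.93e-05). PHO84-2 (PAS_chr3_0141, chromosome 3, 282658 to 284424) had 134 and 122 RPKM in rim101 T30, against 214 and 187 RPKM in rim101 T0. It was listed at 0 in all 3 WT T30 libraries, against 196, 119 and 164 RPKM in WT T0, and the difference in response passed the test (adjusted p = 2.13e-08). Its change in rim101 was -0.64 (adjusted p = 0.198), which passed as a fall with median-ratio scaling (-1.40, adjusted p = 0.00456), quantile normalization (0.00236) and only the groups compared (0.027). How alike the 2 PHO84 genes are in sequence was not analysed here. PHO5 also rose more in rim101 than in WT, by 2.36 (adjusted p = 0.0113), which was lost without rim101 T30 replicate 1 and without rim101 T0 replicate 1 (adjusted p = 0.0982). These 4 were the members of the list whose response differed between the strains, where 0.45% of all genes tested were higher and 0.331% lower in rim101.

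**Figure D1:**
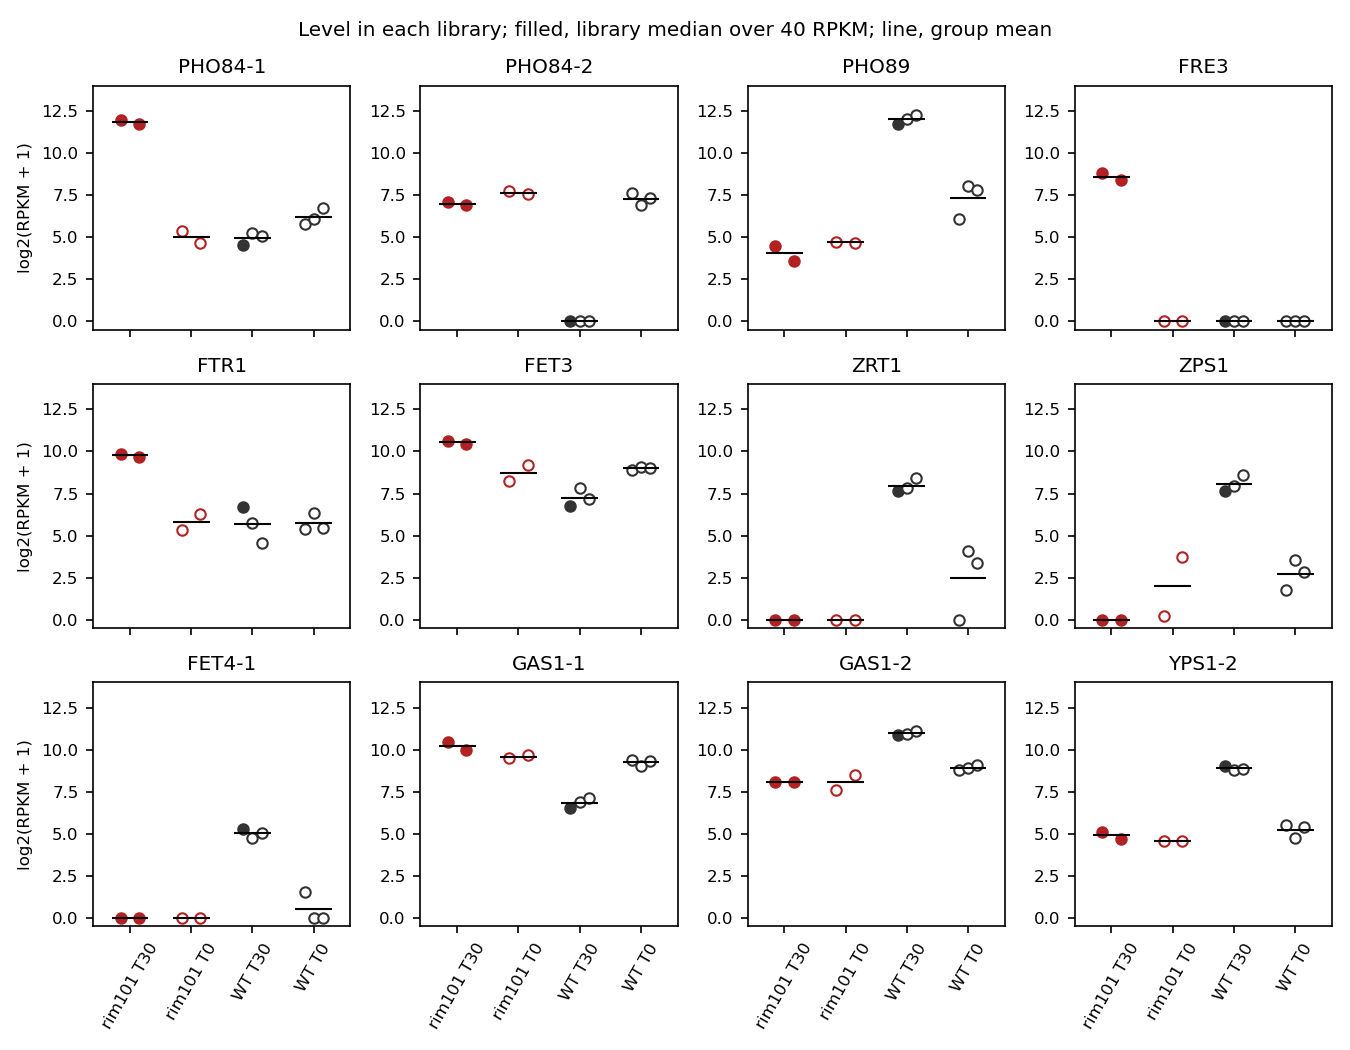
Level of 12 genes in each library as log2(RPKM + 1), in rim101 T30, rim101 T0, WT T30 and WT T0; points are libraries, filled where the median of the library was over 40 RPKM, and lines are group means. PHO84-1 and FRE3 stood high in rim101 T30 only among the 4 groups, PHO89, ZRT1, ZPS1 and FET4-1 in WT T30 only, and GAS1-1 and GAS1-2 changed in WT in opposite directions.

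Some iron and copper uptake genes rose and others did not. Of 29 tested genes of iron, copper and zinc uptake, 11 rose and 2 fell, a share of 37.9% and 6.9%, against 23.5% and 4.64% of all genes. The median change of 0.76 lay just below that of all genes. With library type as a term 9 rose and 2 fell, and with median-ratio scaling 7 and 3. Without 1 of the libraries between 6 and 9 rose, the fewest without rim101 T0 replicate 1. FRE3 (PAS_chr4_0240, chromosome 4, 486364 to 488484), named for a ferric reductase that frees iron at the cell surface, had 446 and 336 RPKM in rim101 T30 and was listed at 0 in both rim101 T0 libraries (adjusted p = 3.21e-13). FRE2-1, named for another ferric reductase, had 147 and 109 RPKM in rim101 T30 and was likewise listed at 0 in rim101 T0 (adjusted p = 2.93e-08). Both were listed at 0 in all 6 WT libraries of T30 and T0. The responses of FRE3 and FRE2-1 thus differed between the strains in limma (adjusted p = 8.41e-11 and 9.15e-06). For FRE2-1 the authors' deposited table gives log2 fold changes of -2.33 for rim101 T0 and -2.14 for WT T30, each against WT T0. The zeros of FRE2-1 are thus given only as listed.

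The high-affinity iron permease and its oxidase partner followed. FTR1, the permease, had 929 and 824 RPKM in rim101 T30, against 39.8 and 76.1 RPKM in rim101 T0, a rise of 3.96 (SE 0.73, adjusted p = 0.000656). In WT it had 103, 53.2 and 23.0 RPKM at T30, and 41.8, 81.6 and 43.3 RPKM at T0, with overlapping groups. FET3, the multicopper ferroxidase that loads the permease, had 1607 and 1421 RPKM in rim101 T30, and 297 and 577 RPKM in rim101 T0. It rose by 1.87 (adjusted p = 0.00538), a call lost with median-ratio scaling (1.10, adjusted p = 0.18), without rim101 T0 replicate 1 (adjusted p = 0.108) and without rim101 T30 replicate 1. In WT it fell to 108, 223 and 142 RPKM at T30, against 485, 534 and 521 RPKM at T0. The difference in response was 3.63 for FET3 (adjusted p = 0.00048) and 4.03 for FTR1 (adjusted p = 0.0363); that of FTR1 was lost in 8 of 10 fits that left out 1 library, all but those without WT T30 replicate 1 or WT T0 replicate 1, with an adjusted p of up to 0.243 (without rim101 T0 replicate 1).

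SIT1-1, CTR1, FRE1, FEP1 and CCC1 passed the test in both strains. SIT1-1, named for a siderophore carrier, had 130 and 128 RPKM in rim101 T30 and was listed at 0 in rim101 T0 (adjusted p = 1.53e-08). WT had 375, 442 and 548 RPKM at T30, and 4.85, 13.6 and 22.6 RPKM at T0. The copper transporter CTR1 had 1618 and 2040 RPKM in rim101 T30, and 133 and 278 RPKM in rim101 T0 (adjusted p = 0.00325), and the metal reductase FRE1 rose by 4.11 (adjusted p = 0.00189). In WT these 2 genes rose by 2.67 (adjusted p = 0.00174) and 2.99 (adjusted p = 0.00292). FEP1, a GATA-type repressor of iron uptake genes, was listed at 0 in both rim101 T30 libraries, against 75.3 and 95.4 RPKM in rim101 T0 (adjusted p = 7.02e-08). WT showed the same: it was listed at 0 in all 3 T30 libraries, with 74.1, 65.0 and 113 RPKM at T0. The test of a difference in response of FEP1 gave an adjusted p of 0.993 in limma. CCC1, which in S. cerevisiae moves iron into the vacuole, fell to 26.5 and 29.1 RPKM in rim101 T30, against 175 and 162 RPKM in rim101 T0 (adjusted p = 0.0391), and in WT to 53.8, 25.9 and 4.71 RPKM at T30, against 160, 164 and 212 RPKM at T0 (adjusted p = 0.00254).

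ZRT1 and FET4-1 were listed at 0 in the mutant at T30 and T0, and ZPS1 did not rise there. ZRT1, the high-affinity zinc transporter, was listed at 0 in all 4 rim101 libraries of T30 and T0, while WT had 197, 228 and 349 RPKM at T30, against 0, 16.3 and 9.28 RPKM at T0. The neighbouring gene ZPS1 (chromosome 3, 991518 to 992378, with ZRT1 at 989382 to 990959), named for a zinc-regulated cell surface protein, was listed at 0 in rim101 T30, against 0.173 and 12.3 RPKM in rim101 T0. The change of ZPS1 in rim101 had a limma adjusted p of 0.0721. It passed as a fall with a pseudocount of 0.1, a replicate block or library weights. WT had 204, 243 and 392 RPKM of ZPS1 at T30, and 2.36, 10.5 and 6.06 RPKM at T0. FET4-1, named for the low-affinity iron transporter, was listed at 0 in all 4 rim101 libraries, with 37.3, 26.4 and 31.8 RPKM in WT T30 and 1.95, 0 and 0 RPKM in WT T0. Their responses were lower in rim101 at adjusted p-values of 0.0342 (ZRT1), 0.000267 (ZPS1) and 9.7e-05 (FET4-1). That of ZRT1 was lost in 7 of 10 fits that left out 1 library, all but the 3 that left out WT T30 replicate 1 or either of replicates 2 and 3 of WT T0 (adjusted p up to 0.157, without rim101 T30 replicate 2). It was also lost with library type as a term (0.0504) and with median-ratio scaling (0.175). ZRT2, named for the low-affinity zinc transporter, had 334 and 316 RPKM in rim101 T30, and 209 and 252 RPKM in rim101 T0; in WT it had 102, 117 and 116 RPKM at T30, and 183, 292 and 211 RPKM at T0. The difference was 1.50 (adjusted p = 0.00183) and was lost with median-ratio scaling (adjusted p = 0.385).

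The Rim pathway and the regulators around it gave no call within the mutant with the values as deposited. None of the 12 tested members rose or fell, with a median change of 0.57, against 0.85 over all genes. With library type as a term 1 member rose. NRG1, named for the repressor that Rim101 represses in S. cerevisiae, had 386 and 406 RPKM in rim101 T30, and 338 and 668 RPKM in rim101 T0. WT had 25.8, 66.4 and 37.5 RPKM at T30, and 214, 145 and 153 RPKM at T0. The rim101 values at T30 thus lay above all WT values at T30, but the change in rim101 (-0.26, adjusted p = 0.827), that in WT (-2.04, adjusted p = 0.0516) and their difference (1.78, SE 1.22, adjusted p = 0.889) did not pass the test. RIM20, whose S. cerevisiae product acts in the cleavage of Rim101, was listed at 0 in all 8 rim101 libraries. Its values were identical to those of the gene MOD5 in every library, so the 2 cannot be told apart. CRZ1 had 36.8 and 29.9 RPKM in rim101 T30, against 20.2 and 22.0 RPKM in rim101 T0 (0.63, adjusted p = 0.0998).

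Genes of sodium, potassium and calcium transport responded without a difference between the strains that passed the test. Of 11 monovalent cation and proton transport genes 7 rose and 1 fell (63.6% and 9.09%, against 23.5% and 4.64% of all genes). The median was 1.09, against 0.85 over all genes. Between 2 and 5 rose without 1 of the libraries, the fewest without rim101 T30 replicate 1, 5 with library type as a term and 3 with median-ratio scaling. TRK2, a potassium uptake gene, had 62.3 and 46.3 RPKM in rim101 T30, and 3.50 and 7.09 RPKM in rim101 T0 (adjusted p = 0.00245, and 0.0512 without rim101 T0 replicate 1). PMP3-2, named for a small membrane protein, had 472 and 591 RPKM in rim101 T30, and 136 and 137 RPKM in rim101 T0 (adjusted p = 5.12e-06, and 0.0703 with median-ratio scaling). ENA2, a sodium pump ATPase, had 70.4 and 45.0 RPKM in rim101 T30, and 19.9 and 21.9 RPKM in rim101 T0; it rose by 1.39 (adjusted p = 0.00245). WT had 363, 268 and 208 RPKM of ENA2 at T30, and 34.0, 42.3 and 39.1 RPKM at T0, and the difference in response had an adjusted p of 0.137. The plasma membrane proton pump PMA1 fell to 940 and 981 RPKM in rim101 T30, against 1472 and 1433 RPKM in rim101 T0 (adjusted p = 0.0139).

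Of 10 calcium genes 5 rose (50%, against 23.5% of all genes) and none fell. The list median of 0.86 lay at the 0.85 of all genes. With library type as a term 3 rose and 1 fell. PMC1, the vacuolar calcium pump, had 106 and 83.9 RPKM in rim101 T30, against 8.10 and 26.7 RPKM in rim101 T0, a rise of 2.59 (adjusted p = 1.33e-05) that stood without any 1 library. CMP2, a calcineurin catalytic subunit, rose by 1.65 (adjusted p = 0.00562, and 0.119 without rim101 T30 replicate 1). Median-ratio scaling left 1 rise of the 5, and without rim101 T30 replicate 1 there was also 1. Of 15 subunits and assembly factors of the vacuolar proton ATPase 2 rose (13.3%), VMA2 and VMA22. Neither was called without any 1 of the libraries or with library type as a term.

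The cell wall list had 16 rises (45.7%, against 23.5% of all genes) and no fall among 35 genes tested. Its median of 0.64 lay below the 0.85 of all genes. The list had 12 rises with library type as a term and 6 with median-ratio scaling. Without 1 of the libraries between 3 and 11 rose, the fewest without rim101 T30 replicate 1 or rim101 T0 replicate 1. TIP1, named for a mannoprotein, had 628 and 490 RPKM in rim101 T30, against 70.8 and 48.5 RPKM in rim101 T0 (adjusted p = 0.00125). CHS3, a chitin synthase, rose by 1.58 (adjusted p = 0.00169), and SLT2, the kinase of the cell wall integrity pathway, by 1.30 (adjusted p = 0.00257, and 0.214 with median-ratio scaling).

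A set of 4 wall genes responded differently in the strains. GAS1-1 and GAS1-2, adjacent on chromosome 1 (420955 to 422571 and 423294 to 424901) and both named for a glucan-remodelling enzyme, moved in opposite directions in WT. GAS1-1 had 1398 and 994 RPKM in rim101 T30, and 730 and 810 RPKM in rim101 T0; in WT it had 92.3, 119 and 138 RPKM at T30, and 675, 527 and 641 RPKM at T0. GAS1-2 had 265 and 274 RPKM in rim101 T30, and 197 and 356 RPKM in rim101 T0; in WT it had 1864, 1992 and 2172 RPKM at T30, and 434, 487 and 554 RPKM at T0. Neither passed the test in rim101 (adjusted p = 0.102 and 0.937), though GAS1-1 did with library type as a term (0.00327), and the differences in response were 3.02 for GAS1-1 (SE 0.39, adjusted p = 4.37e-05) and -2.01 for GAS1-2 (SE 0.29, adjusted p = 0.000193), each just above the threshold with median-ratio scaling (0.0524 and 0.0644). YPS1-2, named for an aspartyl protease of the cell surface, had 34.0 and 25.2 RPKM in rim101 T30, and 23.2 and 22.9 RPKM in rim101 T0. WT had 521, 437 and 469 RPKM at T30, and 44.7, 25.7 and 41.3 RPKM at T0, and the difference was -3.34 (SE 0.32, adjusted p = 4.46e-07). RLM1, a factor downstream of Slt2, differed by -1.55 (adjusted p = 0.0356), which was lost with median-ratio scaling (0.458) and in 8 of 10 fits that left out 1 library, all but those without WT T30 replicate 1 or WT T0 replicate 1 (adjusted p up to 0.237, without rim101 T30 replicate 2).

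Most glycolytic genes fell. Of 15 glycolytic and fermentation genes 14 fell and none rose, with a median log2 change of -1.90, against 0.85 over all genes and 4.64% of genes falling. The count was 12 with library type as a term, 14 with median-ratio scaling and between 7 and 12 without 1 of the libraries, the fewest without rim101 T0 replicate 1. PDC1, pyruvate decarboxylase, had 1010 and 1053 RPKM in rim101 T30, against 12895 and 5621 RPKM in rim101 T0, a change of -3.04 (SE 0.58, adjusted p = 0.000914). GLK1, glucokinase, had 302 and 388 RPKM in rim101 T30, and 2375 and 1402 RPKM in rim101 T0 (adjusted p = 0.000243). The groups of both genes lay well apart, though the 2 T0 libraries of PDC1 differed by more than the 2 at T30. PFK2, a phosphofructokinase subunit, fell by 2.14 on the log2 scale, the enolase gene ENO1 by 2.03 and the phosphoglycerate kinase gene PGK1 by 1.42.

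Of 27 tricarboxylic acid cycle genes 13 fell (48.1%, against 4.64% of all genes) and 1 rose (3.7%, against 23.5%). The median was -0.79, against 0.85 over all genes. With library type as a term 7 fell, and with median-ratio scaling 20. Fewer fell without any 1 of the libraries, the fewest without rim101 T30 replicate 1 or rim101 T0 replicate 1. SDH1, a succinate dehydrogenase subunit, had 139 and 125 RPKM in rim101 T30, against 1542 and 937 RPKM in rim101 T0 (adjusted p = 6.4e-06). ACO1, aconitase, had 326 and 265 RPKM in rim101 T30, and 2578 and 1853 RPKM in rim101 T0 (adjusted p = 5.12e-06). Of the gluconeogenesis and glyoxylate genes 8 of 18 fell (44.4%), among them PCK1, MLS1 and ICL1, and 2 rose (11.1%). PCK1, which makes phosphoenolpyruvate from oxaloacetate, had 0 and 41.3 RPKM in rim101 T30, and 1397 and 218 RPKM in rim101 T0 (adjusted p = 0.0138). With library type as a term PCK1, MLS1 and ICL1 were not called (limma adjusted p = 0.0761, 0.264 and 0.248). The number of falls moved both ways: quantile normalization gave 11 and median-ratio scaling 9, while 1 gene of the list fell with library type as a term, and 0 without rim101 T30 replicate 1 or rim101 T0 replicate 1. PCK1 itself had an adjusted p of 0.207 without rim101 T30 replicate 1, and MLS1 and ICL1 had 0.182 and 0.198 without rim101 T0 replicate 1. In the respiratory chain 10 of 64 genes fell (15.6%) and 2 rose (3.12%), with a median of 0.08. Among the falls was cytochrome c, CYC1, with 733 and 865 RPKM in rim101 T30, against 3898 and 3625 RPKM in rim101 T0 (adjusted p = 3.16e-07). In this list 20 fell with library type as a term and 26 with median-ratio scaling. GPD1, a glycerol 3-phosphate dehydrogenase, fell by 1.71 (adjusted p = 0.00029).

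Nitrogen genes fell in part and sulfur genes rose in part. Of 32 ammonium and glutamate genes 8 fell (25%, against 4.64% of all genes) and 2 rose (6.25%, against 23.5%). GDH3, a glutamate dehydrogenase, had 49.3 and 62.3 RPKM in rim101 T30, against 3657 and 2533 RPKM in rim101 T0, a change of -5.75 (SE 0.46, adjusted p = 7.18e-09). The ammonium permease MEP1 had 14.8 and 11.6 RPKM in rim101 T30, and 257 and 165 RPKM in rim101 T0 (adjusted p = 1.38e-06). Both kept their calls in every fit run. The number of falls in the list was 5 with library type as a term, and 2 without rim101 T0 replicate 1. Of 29 sulfate genes 12 rose (41.4%, against 23.5% of all genes) and none fell. The median was 1.07, against 0.85 over all genes. With library type as a term or with median-ratio scaling 3 rose. Fewer also rose without any 1 of the libraries, the fewest without rim101 T0 replicate 1. MET1, of siroheme synthesis, had 24.7 and 25.8 RPKM in rim101 T30 and was listed at 0 in rim101 T0 (adjusted p = 2.76e-06). The sulfate permease SUL1 had 96.0 and 84.4 RPKM in rim101 T30, and 8.57 and 7.11 RPKM in rim101 T0 (adjusted p = 0.0196, and 0.194 with library type as a term). SUL1 was also not called without any 1 of the 4 libraries (adjusted p up to 0.13). Of 54 amino acid biosynthesis genes 14 rose (25.9%, against 23.5% of all genes) and 5 fell. The balance of this list turned with scaling, with 2 rises and 12 falls under median-ratio scaling and 5 and 9 under quantile normalization; 3 rose without rim101 T30 replicate 1 and 1 fell without rim101 T0 replicate 1. HIS4, a histidine synthesis enzyme, fell to 57.2 and 49.2 RPKM in rim101 T30, against 305 and 134 RPKM in rim101 T0 (adjusted p = 0.00517, and 0.122 without rim101 T0 replicate 1).

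HSP12 and MSC1 were among the named stress genes that rose. HSP12, a small membrane-associated heat shock protein, had 6339 and 7380 RPKM in rim101 T30, against 183 and 173 RPKM in rim101 T0, a rise of 5.26 (SE 0.43, adjusted p = 8.63e-09). MSC1, of the same list of chaperones and heat shock genes, had 345 and 295 RPKM in rim101 T30, and 4.63 and 0 RPKM in rim101 T0 (adjusted p = 1.4e-06). In that list 6 of 31 rose (19.4%, against 23.5% of all genes) and 3 fell, with a median of 0.24, against 0.85 over all genes. The falls included SSA1, a cytosolic Hsp70, with 2530 and 2346 RPKM in rim101 T30, against 5674 and 5882 RPKM in rim101 T0 (adjusted p = 0.0411). The balance of the list turned, with 2 rises and 12 falls under median-ratio scaling and 2 and 4 with library type as a term. The trehalase ATH1 had 32.6 and 21.5 RPKM in rim101 T30, and 0 and 1.73 RPKM in rim101 T0 (adjusted p = 1.97e-05). GDB1, the glycogen debranching enzyme, rose by 3.02 (adjusted p = 0.000152). Of 33 oxidative stress genes 14 rose and 4 fell (42.4% and 12.1%, against 23.5% and 4.64% of all genes). The median was 0.97, against 0.85 over all genes. GTT1, a glutathione transferase, rose by 3.75 (adjusted p = 0.000259), with values identical to those of an overlapping gene. With median-ratio scaling 6 of the list rose and 6 fell, and without rim101 T0 replicate 1 there were 5 rises.

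Of 33 genes of folding and glycosylation in the endoplasmic reticulum 17 rose (51.5%, against 23.5% of all genes) and none fell. The median was 1.14, against 0.85 over all genes. Only 3 rose with library type as a term and 2 with median-ratio scaling. Fewer also rose without any 1 of the libraries, the fewest without rim101 T0 replicate 1. HAC1, the factor of the unfolded protein response, had 239 and 246 RPKM in rim101 T30, against 0 and 18.3 RPKM in rim101 T0 (adjusted p = 0.00153, and 0.078 without rim101 T0 replicate 1). The chaperone PDI1 rose by 0.61 (adjusted p = 0.0437), with -0.15 under median-ratio scaling.

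Ribosome biogenesis had the most rises in number, and it is the list in which library type moved most with the result. Of 136 genes 69 rose and none fell, with a median of 1.99; the count was 5 with library type as a term, 24 with median-ratio scaling, and between 1 and 56 without 1 of the libraries, the fewest without rim101 T0 replicate 1. RRP14 had 185 and 116 RPKM in rim101 T30, and 0 and 0.392 RPKM in rim101 T0 (adjusted p = 0.0268). At the other times it had 8.04 RPKM in T15 replicate 1, 178 RPKM in T15 replicate 2, and 0.467 and 0 RPKM in T60. UTP11 was similar, with 85.6 and 64.4 RPKM in rim101 T30, 0 in both T0 libraries, 7.97 and 99.7 RPKM in T15, and 0 in both T60 libraries. High values of both thus stood in the 3 rim101 libraries with a high median, and low ones in the 5 others. With library type as a term the adjusted p was 0.194 for RRP14 and 0.264 for UTP11, and without any 1 of the 4 libraries neither was called. The list share of rises was 50.7%, against 23.5% of all genes. In WT 97 of the 136 genes rose (median 2.14), where 24.1% of all genes rose. Of the WT T30 libraries only replicate 1 had the high median. RRP14 had 181, 11.1 and 5.32 RPKM in WT T30 and was listed at 0 in WT T0. UTP11 had 94.3, 15.0 and 5.43 RPKM in WT T30, and 0, 6.51 and 0 RPKM in WT T0. The cause was not tested.

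Of 75 cytosolic ribosomal protein genes none rose or fell in limma, with a median of 0.075. Of 60 mitochondrial ribosomal protein genes 1 rose. Of 27 genes of RNA polymerases I and III 3 rose, RPC37 among them with values identical to those of the overlapping translation factor gene GCN3. In the list of tRNA synthetases and translation factors 9 of 49 rose, in the proteasome 3 of 30, in autophagy 5 of 14, in sterol and fatty acid synthesis 7 of 44 with 1 fall, in peroxisome and methanol use 3 of 24, in glycerol use 1 of 8 with the 1 fall of GPD1, in trehalose and glycogen 3 of 13 with 1 fall, and in cell cycle, replication and histones 12 of 39 with 1 fall. Under median-ratio scaling the balance turned in sterol and fatty acid synthesis (1 rise and 5 falls), mitochondrial ribosomal proteins (1 and 7) and trehalose and glycogen (2 and 3). Of these lists autophagy (35.7%) and cell cycle (30.8%) lay above the 23.5% of all genes tested. With library type as a term 1 autophagy gene and 5 cell cycle genes rose, and none of the RNA polymerase or proteasome genes. Leaving out 1 library moved most of these counts: without rim101 T30 replicate 1 there were 2 cell cycle rises, 1 in autophagy and 0 each in translation, in sterol and fatty acid synthesis, in peroxisome and methanol use and in the RNA polymerases, and without rim101 T0 replicate 1 there were 0 each in translation and the proteasome.

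**Figure D2:**
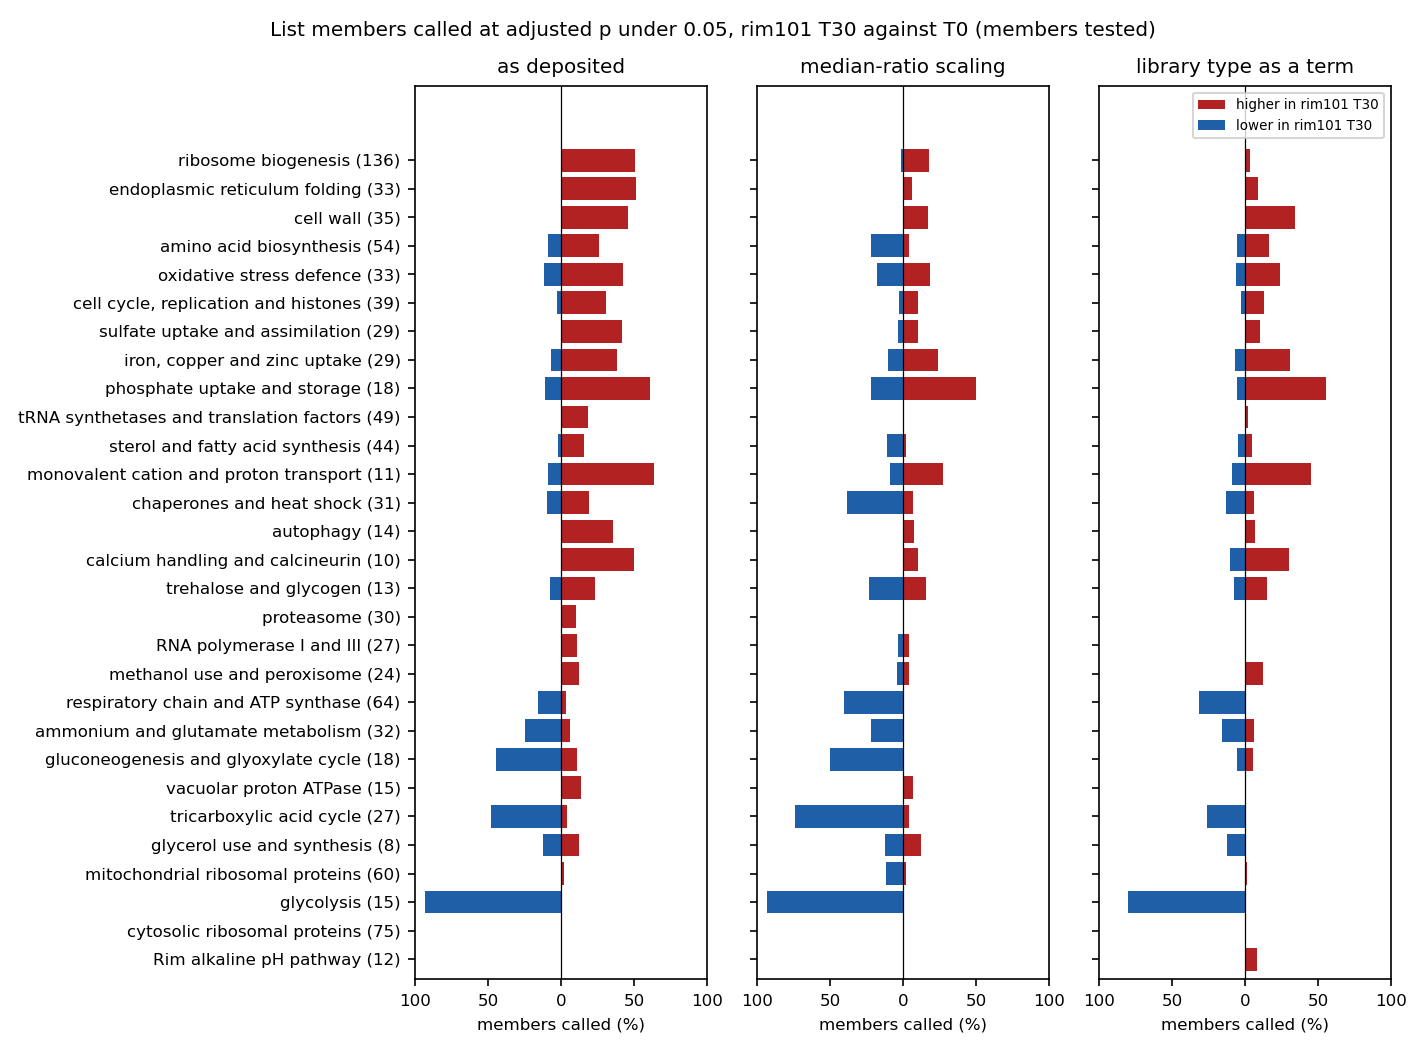
Percent of the tested members of each list that were called higher (to the right) or lower (to the left) in rim101 T30 than in rim101 T0 at an adjusted p under 0.05 in limma, as deposited, with median-ratio scaling and with library type as a term; the number of members tested follows each name. Glycolysis fell in all 3 panels (14, 14 and 12 of 15), and ribosome biogenesis had 69, 24 and 5 rises of 136.

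The rim101 libraries at 15 and 60 min put these values in time. PHO84-1 had 41.0 and 23.9 RPKM at T0, 1548 and 2447 at T15, 3972 and 3364 at T30, and 1018 and 1380 at T60. FRE3 was listed at 0 at T0 and had 53.6 and 139 RPKM at T15, 446 and 336 at T30, and 134 and 150 at T60. Both genes thus stood above every T0 value at each later time, also at T60, where neither library had the high median. FEP1 had 75.3 and 95.4 RPKM at T0, was listed at 0 in the 4 libraries of T15 and T30, and had 21.8 and 12.8 RPKM at T60. HSP12 had 183 and 173 RPKM at T0, 4757 and 6647 at T15, 6339 and 7380 at T30, and 1592 and 1846 at T60. The median log2 change from T0 of the phosphate list was 1.20 at T15, 1.76 at T30 and 0.42 at T60; that of glycolysis was -1.34, -1.90 and -1.11, and that of ribosome biogenesis 1.75, 1.99 and 0.43. These comparisons share the T0 libraries. List members outside the rule given under the processing (VTC4, PHO81, PHO2, CTR1, FRE1, CCC1, ENA2, PMA1, RIM20, CHS3, SLT2, PFK2, ENO1, PGK1, SSA1 and PDI1) were picked for the text after their values were seen.

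**Figure D3:**
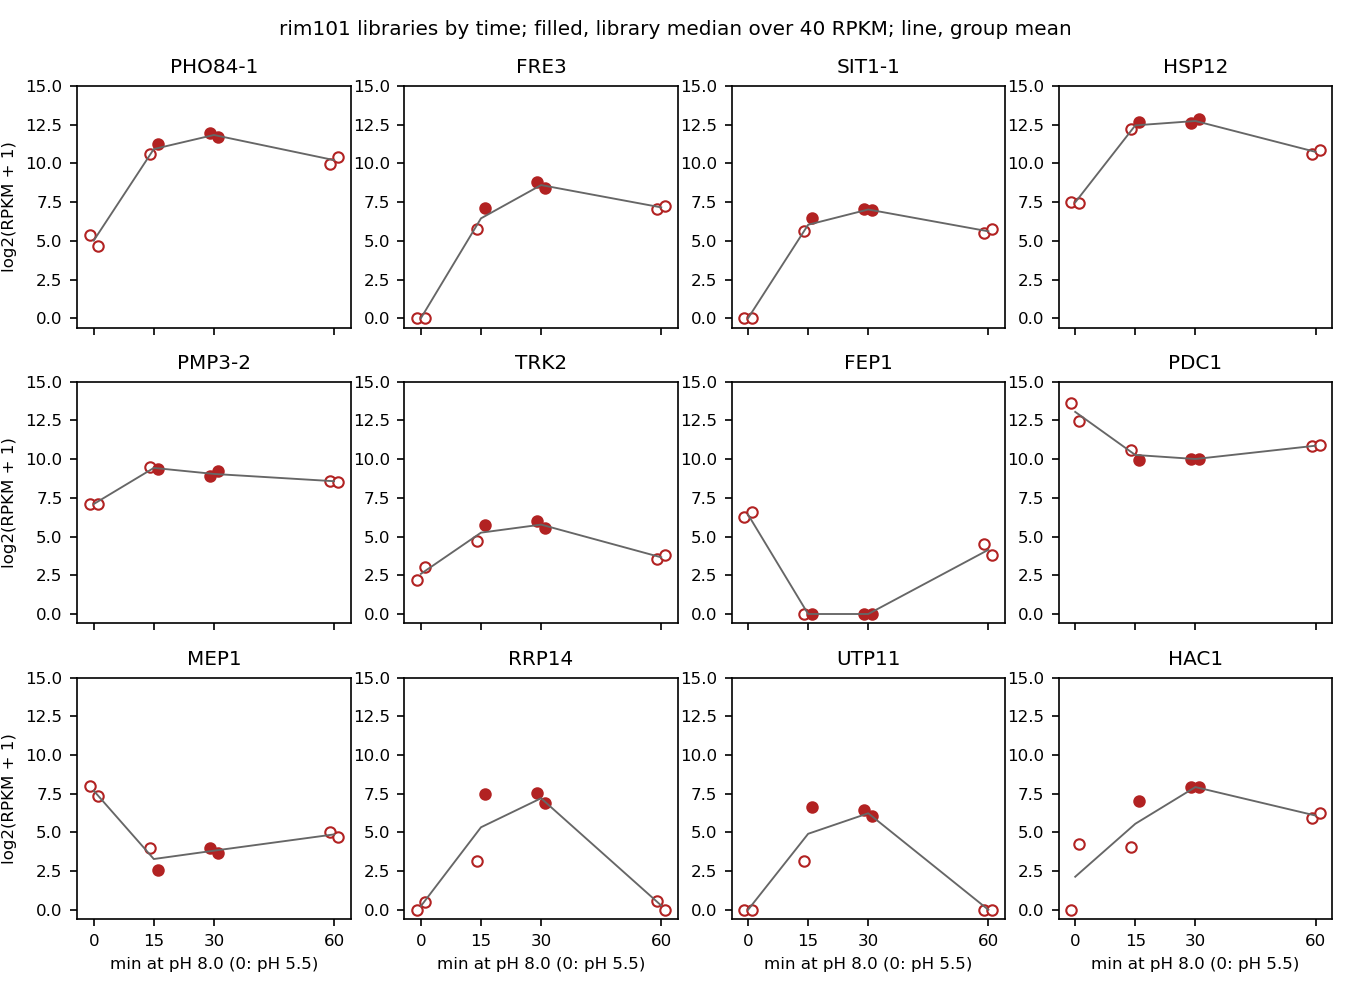
Level of 12 genes in the rim101 libraries as log2(RPKM + 1) against time in min (pH 5.5 at 0, pH 8.0 afterwards); points are libraries, filled where the library median was over 40 RPKM, and lines join group means. PHO84-1, FRE3, SIT1-1 and HSP12 stayed above their T0 values at 60 min, while RRP14 and UTP11 were high only in filled points.

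The response of rim101 as a whole ran alongside that of WT. Across the 4226 genes, which are not independent replicates, the log2 changes of the 2 strains had a Pearson correlation of 0.73 and a Spearman correlation of 0.75, given as a description. At the 2-fold minimum 438 genes rose in both strains, 52.1% of the 840 rises of rim101 and 60.3% of the 726 rises of WT (17.2% of the genes tested, and 24.1% without the minimum fold). For the falls the 73 shared genes were 46.2% of the 158 of rim101 and 63.5% of the 115 of WT (2.72% of the genes tested, and 4.07% without the minimum fold). Of the rim101 calls, 825 rises and 145 falls had the same sign in WT, and 1 of each was called in the opposite direction. Over all genes tested, 79.5% had a change above 0 in WT, so most rises would share their sign in any case. The test of the difference in response called 33 genes, 19 higher (0.45% of the genes tested) and 14 lower (0.331%) in rim101, all at least 2-fold; 162 genes had an unadjusted p under 0.05. Without rim101 T30 replicate 1 the counts were 12 and 9. Without rim101 T0 replicate 1, WT T30 replicate 2 or WT T30 replicate 3, 9 genes were lower in each case.

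Besides the genes above, the higher ones included 2 further transporter genes that were listed at 0 in all WT libraries of T30 and T0: YOR1-1, an ABC transporter with 26.3 and 22.1 RPKM in rim101 T30 and 0 in rim101 T0 (adjusted p = 6.36e-05), and PAS_chr2-1_0270, annotated with protoporphyrin uptake and heme efflux in the authors' deposited table, with 200 and 214 RPKM in rim101 T30, and 0 and 19.3 RPKM in rim101 T0 (adjusted p = 0.00234). QDR3, a multidrug transporter, had 14.5 and 11.5 RPKM in rim101 T30, and 5.86 and 8.33 RPKM in rim101 T0. It was listed at 0 in WT T30, against 4.00, 7.35 and 3.34 RPKM in WT T0 (adjusted p = 0.000467). PAS_chr4_0077, annotated there with a basic helix-loop-helix domain, had 207 and 171 RPKM in rim101 T30 and was listed at 0 in rim101 T0 (adjusted p = 0.00673 for the difference); in WT it also rose, to 393, 238 and 219 RPKM at T30, against 7.73, 9.58 and 9.52 RPKM at T0, with the rim101 values below those of WT at both times.

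Among the lower genes, MIT1, a transcription factor of methanol induction in K. phaffii, was listed at 0 in all 8 rim101 libraries. WT had 100, 135 and 206 RPKM at T30, and 3.17, 0 and 0 RPKM at T0 (adjusted p = 6.36e-05 for the difference). The uncharacterized gene PAS_chr4_0359 was listed at 0 in all 4 rim101 libraries of T30 and T0, against 1402, 1031 and 898 RPKM in WT T30 and 11.3, 6.40 and 3.55 RPKM in WT T0 (adjusted p = 0.00096). PAS_chr3_0486, also uncharacterized, had 22.9 and 25.4 RPKM in rim101 T30, and 14.3 and 19.0 RPKM in rim101 T0; WT had 444, 632 and 573 RPKM at T30, and 15.7, 11.4 and 15.4 RPKM at T0 (adjusted p = 0.0356). YOR1-1, QDR3 and the genes given by locus name only in this and the preceding paragraph were chosen for the text after their values were seen. Whether their calls of a difference stood without a single library is not given here.

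**Figure D4:**
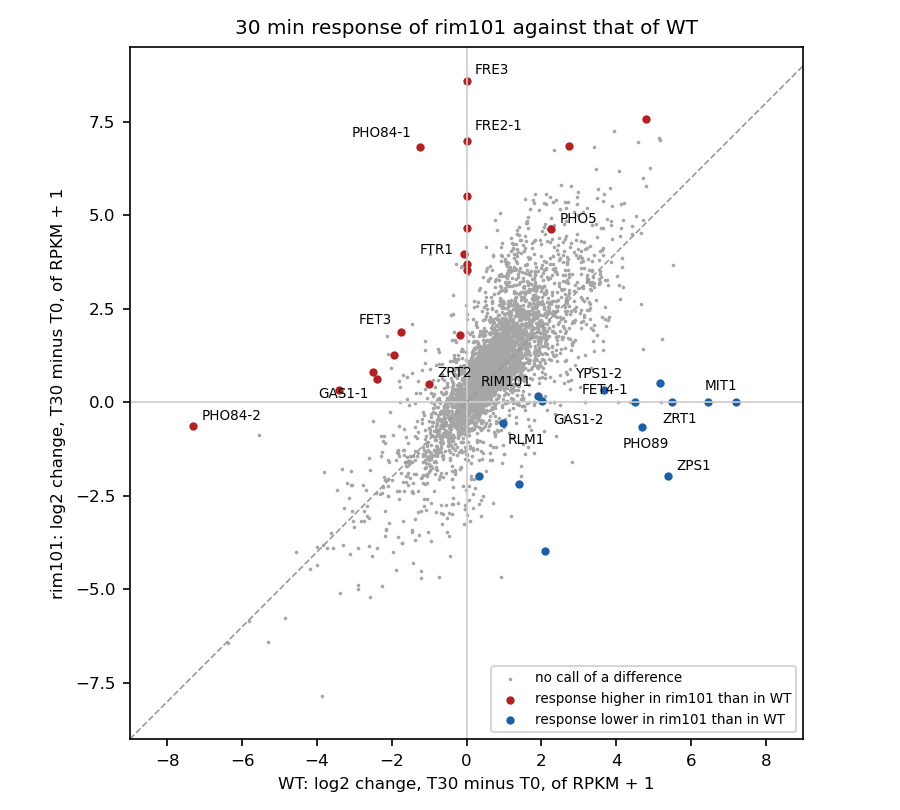
Change on the log2(RPKM + 1) scale from T0 to T30 in rim101 (vertical axis) against that in WT (horizontal axis), for the 4226 genes tested; the dashed line marks equal change. The 19 genes with a higher response in rim101 (red) include FRE3, FRE2-1, PHO84-1 and FTR1, and the 14 with a lower one (blue) include MIT1, ZPS1, ZRT1, PHO89 and YPS1-2.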

How the data were processed

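Poly-A RNA was sequenced with a non-directional library kit, per the labels' protocols. Per the submitters' processing notes the tools included Bowtie2 and edgeR, whose versions they do not give. No genome build is stated there, but the gene coordinates of all 5040 genes equal those of RefSeq assembly ASM2700v1, and 3009 genes carry a symbol. Expression was analysed as the RPKM values deposited by the authors. A second table deposited by the authors, of 4581 genes, gives their own log2 fold changes and adjusted p-values against WT T0, and is cited by name where it is used. The series text names the strain GS115 and the labels X-33.

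From the RPKM values, log2(RPKM + 1) was tested with limma 3.58.1 (trended prior, two-sided, R 4.3.3) for genes with a mean of at least 1 RPKM. All 32 libraries entered as 12 group means, which leaves 20 residual degrees of freedom, and p-values were adjusted with the Benjamini-Hochberg method over 4226 genes. A fold change is on the log2(RPKM + 1) scale and understates the change of low genes. The procedure was tested on simulated data with added changes of 1, 2 or 3 on the log2 scale. For rim101 T30 against rim101 T0 it recovered 40.9%, 68.7% and 88.1% of them at an adjusted p under 0.05. For the difference in response it recovered 15.2%, 53.7% and 70.1%. The simulated noise was independent between genes, so it held no shift of whole libraries. Read depth was taken from the spacing of low RPKM values and was 4.96 to 16.5 M reads where it could be read; non-directional libraries do not tell overlapping genes apart. The labels do not say that replicates were separate cultures, so p-values measure the spread between these libraries only.

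The 29 gene lists, from S. cerevisiae and K. phaffii gene names, and the groups compared were chosen with earlier results of these data known. Genes named by rule were RIM101, NRG1 and CRZ1, the 12 largest rises and 10 largest falls with a symbol, non-overlapping groups and a mean of at least 10 RPKM, up to 4 called members of each list, and the 6 most positive and 6 most negative differences in response, with called differences in the uptake, Rim and cell wall lists. Of the named genes 3 have values identical to another gene's. Alternatives were the pseudocount (0.1 and 5), the filter (none and 5 RPKM), median-ratio and quantile scaling, only the groups compared, a replicate block, library weights, no trend and each library left out in turn. Library type as a term (median over 40 RPKM or not) was chosen after seeing the data. Replicate correlations (Pearson, log2 scale) were 0.971 in rim101 T30 and 0.954 in rim101 T0. Python 3.11.15, pandas 2.3.3 and matplotlib 3.10.9 made the tables and figures.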

Additional observations from a re-analysis of the deposited data

Results flagged for a closer look

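The responses of the 2 strains to the same 30 min at pH 8.0 differed by limma's test of the difference itself (rim101 change minus WT change, Benjamini-Hochberg adjusted p under 0.05) for 33 of 4226 genes, 19 higher and 14 lower in rim101. The differences below are on the log2(RPKM + 1) scale; for a gene listed at 0 in a whole group (FRE3, FRE2-1, PHO84-2, ZPS1, ZRT1, FET4-1 and MIT1) the size depends on the added 1 RPKM and is no fold.

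Higher in rim101 were the ferric reductase genes FRE3 (8.60) and FRE2-1 (6.99), the phosphate transporter genes PHO84-1 (8.06) and PHO84-2 (6.66), PHO5 (2.36), the iron uptake pair FTR1 (4.03) and FET3 (3.63), the zinc transporter gene ZRT2 (1.50) and the wall gene GAS1-1 (3.02). FRE3, FRE2-1 and PHO84-1 were raised at T30 in rim101; PHO84-2 and GAS1-1 fell in WT and did not pass the test in rim101 with the values as deposited, though PHO84-2 passed as a fall with median-ratio scaling (-1.40, limma adjusted p = 0.00456) and GAS1-1 as a rise with library type as a term (1.11, limma adjusted p = 0.00327).

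Lower in rim101 were ZPS1 (-7.36), MIT1 (-6.46), ZRT1 (-5.48), PHO89 (-5.34), FET4-1 (-4.50), YPS1-2 (-3.34), GAS1-2 (-2.01), RIM101 itself (-1.76) and RLM1 (-1.55). For all 9 of these the WT response passed the test as a rise, and none rose in rim101. Among the genes named in this and the preceding paragraph, RIM101, PHO5, ZRT1, FTR1 and RLM1 lost the call of the difference in at least 1 fit without a single library. For the other called genes these fits are given only as counts.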

How the results depend on the processing

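The 840 rises and 158 falls of at least 2-fold in rim101 T30 against rim101 T0 depended on scaling: median-ratio scaling gave 320 and 301, and quantile normalization 244 and 364. Pooling the spread over only the groups compared gave 1508 rises, the replicate block 1426, and library weights 1733 rises and 262 falls. Library type as a term, chosen after seeing the data, gave 259 rises. Without 1 of the 4 libraries the rises ranged from 141 to 433 and the falls from 65 to 130. Of the differences in response, 19 higher and 14 lower, only the groups compared left 7 and 8, median-ratio scaling 9 lower, and library weights gave 101 and 91; without 1 library 12 to 19 were higher and 9 to 19 lower. Only the groups compared also ended the call of the difference for RIM101, PHO5, ZPS1, ZRT1, GAS1-2, FTR1, FET4-1, ZRT2 and RLM1 (limma adjusted p 0.0596 to 0.791). The cause was not tested. VMA2 (-0.14), PUP2 (-0.069) and SCL1 (-0.22) turned negative with median-ratio scaling. Of 120 named genes 39 kept direction and side of the threshold under every alternative run, as did 10 of 20 named differences. Whether replicate numbers pair the samples was not settled. Same-numbered deviations of T30 and T0 had correlations of 0.15 in rim101, and -0.26, -0.20 and 0.35 in WT. The replicate block, with its 1426 rises, gave 224 falls, and 18 higher and 18 lower differences. Of the 840 rises 212 were listed at 0 in at least 1 rim101 T0 library, and 119 in both; what the zeros stem from was not tested.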

Other observations

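Some further genes also passed the test in rim101. TMA17 and UBA4 did so in WT too, with changes of 3.41 (limma adjusted p = 0.0106) and -3.37 (limma adjusted p = 0.00543). The difference in response had an adjusted p of 0.889 for each. For PRB1 and CDC7 the WT values are not given here. TMA17, named for a proteasome assembly factor, had 153 and 138 RPKM in rim101 T30, against 0 and 0.67 RPKM in rim101 T0 (limma adjusted p = 0.000329, at most 0.00877 without 1 library). UBA4, named for a ubiquitin-like activating enzyme, was listed at 0 in rim101 T30, against 47.0 and 23.5 RPKM in rim101 T0 (adjusted p = 0.00177, at most 0.0354 without 1 library). The vacuolar protease gene PRB1 had 201 and 191 RPKM in rim101 T30, and 75.1 and 64.1 RPKM in rim101 T0 (adjusted p = 0.00294, and 0.161 with median-ratio scaling). CDC7, a kinase gene of replication origins, had 16.1 and 5.34 RPKM in rim101 T30 and was listed at 0 in rim101 T0 (adjusted p = 0.000884). SHE3, an mRNA transport gene, had 18.1 and 7.96 RPKM in rim101 T30 and was listed at 0 in every other rim101 and WT library shown here, with an adjusted p of 0.0398 for the difference in response.

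DHG2 lies next to PHO84-1 (chromosome 4, 691450 to 692223, against 689274 to 691001) on the same strand. It had 85.9 and 84.9 RPKM in rim101 T30, and 24.8 and 22.4 RPKM in rim101 T0; in WT it had 33.5, 42.0 and 26.3 RPKM at T30, and 28.2, 72.3 and 25.9 RPKM at T0. The difference in response was 1.98 (limma adjusted p = 0.0259).

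PAS_chr4_0363, a locus close to PAS_chr4_0359, was listed at 0 in rim101 T30, against 19.7 and 11.1 RPKM in rim101 T0. In WT it had 79.9, 90.5 and 65.0 RPKM at T30, and 45.2, 9.78 and 11.7 RPKM at T0 (limma adjusted p = 0.00237 for the difference). SHE3, DHG2 and PAS_chr4_0363 were picked after their values were seen, and whether their calls of a difference stood without a single library is not given here.

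In the authors' deposited table, which sets rim101 T30 against WT T0, PHO84-1 had a log2 fold change of 4.66 and PHO89 one of -4.32; for WT T30 against WT T0 that table gives -1.76 and 4.06.

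In all, 144 genes form 72 sets that share identical values in every library. Of the 840 rises 36 are among them, and of the 158 falls 0.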
